A study of Mus musculus with 2 samples.

Results

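The genes described here are 9 components of the intracellular danger-sensing machinery, taken by symbol from the 24346 genes listed in bulk mRNA sequencing of mouse skin wounds. They are the sensors Nlrp3, Nlrc4 and Aim2, the adaptor Pycard (ASC), the inflammatory caspases Casp1 and Casp4, the pore-forming protein Gsdmd, and the peptidoglycan receptors Nod1 and Nod2. All 9 symbols were found, and each reached 0.1 FPKM (fragments per kilobase of transcript, scaled to the mapped fragments of the library) in 1 or both libraries. One library came from WT pups and the other from PU.1-/- (PU.1_KO) pups, both C57BL/6J, wounded with a full-thickness dorsal incision at 1 day of age and harvested 24 h later. PU.1, the product of Spi1, is a transcription factor needed for making myeloid and lymphoid cells. Pups deleted for it in all tissues lack macrophages, neutrophils, mast cells and, by the authors' account, T cells. The methods call the wounds incisional, the series' design text calls them excisional, and the number of pups behind each library is not given in the sources used here.

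Inflammasomes are protein platforms of the cytosol. A sensor such as NLRP3, NLRC4 or AIM2 detects ion fluxes, bacterial proteins or double-stranded DNA and, mostly through the adaptor ASC, gathers and activates caspase-1, which matures the cytokines IL-1β and IL-18 and cleaves gasdermin D into a membrane pore. Caspase-11, the product of mouse Casp4, is activated by cytosolic lipopolysaccharide and cleaves gasdermin D directly. NOD1 and NOD2 bind fragments of the bacterial cell wall and signal through RIPK2 to NF-κB, without an inflammasome. In skin, sensors of this kind are known from myeloid cells and, for several of them, from keratinocytes.

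With 1 library per genotype there was no spread between animals and no test. Differences are given as the ratio of the libraries, and the intervals are 95% exact binomial (Clopper-Pearson) intervals on recovered read numbers, which cover counting error only. The depth was estimated at about 13800000 fragments for WT and 15900000 for PU.1-/-. The estimate comes from transcript lengths and the whole-read steps in which the values of low genes move. It was not checked against a count of mapped reads. Spi1 itself, on chromosome 2 from 91082374 to 91115759, was at 35.4 FPKM in WT against 1.45 FPKM in PU.1-/-. The libraries also differed in sex-linked genes, since Y-linked genes such as Ddx3y and Kdm5d were above 0 in WT and listed at 0 in PU.1-/-, and Xist was listed at 0 in WT, so genotype and sex cannot be told apart in any value below.

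Some of the 9 genes carry the purine-rich core bound by PU.1, GAGGAA (the PU box), close to their transcription start. RefSeq windows on GRCm38.p6 (the assembly of mm10), from 250 bases before to 50 bases after each start, were given for 8 of the 9 genes in 11 windows, and Gsdmd had none. GAGGAA, searched on both strands, occurred in the windows of Nlrp3, Aim2, Pycard and Casp1, which makes 4 of 8 genes and 4 of 11 windows. It occurred in 28.3% of all 32851 windows, which is the share to set beside 4 of 11. A share per gene, to set beside 4 of 8, was not computed. The stretches before the start of these 4 genes are shown because they hold the match. The stretch of Casp4 is shown as an example without it, and Nlrc4, Nod1 and Nod2 had none either. Without a match, Nlrc4 was lower in PU.1-/- and Casp4 higher, while Pycard and Casp1, which hold one, stayed within 2-fold. Whether the match goes with the differences was not tested. Capitals mark GAGGAA or its reverse complement, and each stretch runs 5′ to 3′ on the strand of its gene.
Nlrp3, chr11:59542436-59542685, plus strand, before the second of its RefSeq starts and overlapping no GENCODE exon: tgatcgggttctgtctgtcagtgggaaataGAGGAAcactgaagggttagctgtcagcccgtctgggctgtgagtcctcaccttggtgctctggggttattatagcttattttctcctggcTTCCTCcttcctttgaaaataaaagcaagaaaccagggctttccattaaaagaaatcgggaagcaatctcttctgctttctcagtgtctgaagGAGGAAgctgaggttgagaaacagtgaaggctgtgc
Aim2, chr1:173420354-173420570, plus strand, ended where the first GENCODE exon begins: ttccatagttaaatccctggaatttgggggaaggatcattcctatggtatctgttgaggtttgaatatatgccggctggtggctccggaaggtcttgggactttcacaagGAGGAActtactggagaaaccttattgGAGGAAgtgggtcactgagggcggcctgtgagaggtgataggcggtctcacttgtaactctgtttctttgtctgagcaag
Pycard, chr7:127993868-127994117, minus strand, overlapping the exon of the unconfirmed transcript Gm45205 on the other strand: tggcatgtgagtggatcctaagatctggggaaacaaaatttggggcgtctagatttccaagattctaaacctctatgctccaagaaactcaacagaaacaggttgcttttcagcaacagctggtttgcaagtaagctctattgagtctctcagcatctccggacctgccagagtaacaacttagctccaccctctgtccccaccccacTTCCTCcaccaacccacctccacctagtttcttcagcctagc
Casp1, chr9:5298267-5298516, plus strand, overlapping no GENCODE exon: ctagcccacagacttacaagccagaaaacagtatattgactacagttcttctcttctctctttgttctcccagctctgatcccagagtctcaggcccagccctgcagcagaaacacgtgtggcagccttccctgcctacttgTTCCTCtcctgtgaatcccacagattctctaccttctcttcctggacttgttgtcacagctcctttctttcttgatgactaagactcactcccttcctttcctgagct
Casp4, chr9:5308599-5308827, plus strand, ended where the first GENCODE exon begins: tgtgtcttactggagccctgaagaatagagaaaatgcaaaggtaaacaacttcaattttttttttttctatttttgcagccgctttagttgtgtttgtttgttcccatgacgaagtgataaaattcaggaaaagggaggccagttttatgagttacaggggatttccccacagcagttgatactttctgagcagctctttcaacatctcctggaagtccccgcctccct
The Nlrp3 window held 3 matches, at 220, 129 (on the opposite strand) and 36 bases before the start, and the Aim2 window held 2, at 140 and 113 bases before it. The single matches of Pycard and Casp1 lay on the opposite strand, 42 and 108 bases before the start. No match was found in the windows of Nlrc4, Casp4, Nod1 and Nod2, nor in the window before the first Nlrp3 start. A match is a stretch of letters and does not show binding.

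The 9 genes differed among themselves. With values below 0.1 FPKM raised to 0.1 and a 2-fold difference counted, 4 of the 9 were lower in the PU.1-/- wound (Nlrp3, Nlrc4, Aim2 and Gsdmd), against 4.34% of all listed genes and 6.49% of the 16298 genes that reached 0.1 FPKM in either library. Casp4 alone was higher, 1 of 9, against 2.32% and 3.47%. Pycard and Casp1 lay just inside the 2-fold limit, and Nod1 and Nod2 were nearly equal in the libraries. The 9 genes had a median log2 ratio, taken as PU.1-/- over WT, of −0.99, and the 16298 genes one of −0.01. In whole skin, fewer cells of a type and less RNA per cell cannot be told apart.

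**Figure D1:**
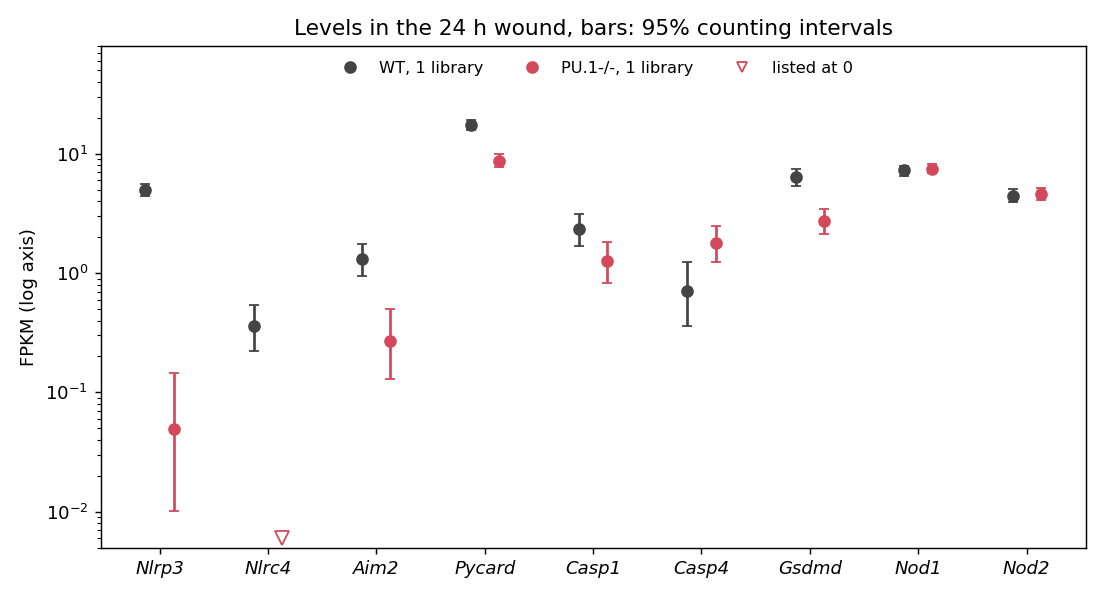
Level of each gene in FPKM (log axis) in the WT library (dark grey) and the PU.1-/- library (red), with 95% exact Poisson counting intervals as bars, and an open triangle where a gene is listed at 0. Nlrp3 is at 4.97 FPKM in WT and at 0.0493 in PU.1-/-, while Nod1 and Nod2 each have nearly the same level in both libraries.

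The sensors showed the largest differences. Nlrp3, which responds to potassium efflux and is itself induced by inflammatory signals, lies on chromosome 11 from 59541569 to 59566955. It was at 4.97 FPKM in WT against 0.0493 FPKM in PU.1-/-, or 263 and 3 reads, so the PU.1-/- wound held 0.993% of the WT level. The ratio of WT over PU.1-/- was 101, with an interval of 34.1 to 491. With values below 0.1 FPKM raised to 0.1, its log2 ratio was −5.63, and 115 of the 16298 genes had a lower one. That rank depends on the floor, since the PU.1-/- value of Nlrp3 lies under it and 453 of the 16298 genes were listed at 0 in PU.1-/-.
Aim2, the sensor of cytosolic double-stranded DNA, lies on chromosome 1 from 173349547 to 173466040 with its predicted transcripts. It was at 1.30 FPKM in WT against 0.270 FPKM in PU.1-/-, from 42 and 10 reads. Aim2 was still detected at 20.7% of its WT level, and its ratio of 4.82 had an interval of 2.38 to 10.8.
Nlrc4, which joins NAIP proteins loaded with flagellin or secretion-system proteins, lies on chromosome 17 from 74426255 to 74459144. It was the least abundant of the 9 genes, with 0.357 FPKM or about 22 reads in WT, and was listed at 0 in PU.1-/-. If that 0 stands for fewer than 3 reads, which would be 0.0418 FPKM, Nlrc4 was at least 8.55-fold lower, with the 22 WT reads taken as they are, and the counting interval of its ratio began at 6.29. The sum of the 3 sensors was 6.62 FPKM in WT, mostly Nlrp3, against 0.319 FPKM in PU.1-/-, mostly Aim2.

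Pycard encodes ASC, whose pyrin and CARD domains join sensors to caspase-1, and lies on chromosome 7 from 127991373 to 127993867. It was the most abundant of the 9 genes in both libraries, at 17.4 FPKM in WT against 8.77 FPKM in PU.1-/-. Its ratio of 1.99 stood just under the 2-fold limit, so Pycard was not counted as lower. The smallest whole reads that give this ratio, 466 and 269, put the interval at 1.71 to 2.32. The read numbers of Pycard are less certain than those of the other genes, because its GENCODE transcript of 3800 nt is longer than the RefSeq gene of 2495 bp, and with its shortest transcript of 493 nt they would be 71 and 41 and the interval 1.34 to 3.0. Beside the near absence of Nlrp3, the adaptor transcript was thus present at 50.3% of its WT level, and the ratio of Nlrp3 to Pycard went from 0.285 in WT to 0.00563 in PU.1-/-.

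The inflammatory caspases differed in opposite directions. Casp1, the caspase that matures IL-1β, lies on chromosome 9 from 5298517 to 5307281 and was at 2.33 FPKM in WT against 1.25 FPKM in PU.1-/-, from 42 and 26 reads. Its ratio of 1.86 had an interval of 1.11 to 3.15, above 1 and reaching past 2. Casp4, which encodes caspase-11, begins 1567 bp beyond the end of Casp1 on the same strand, from 5308849 to 5336791. It was at 0.702 FPKM in WT against 1.78 FPKM in PU.1-/-, so that the PU.1-/- level was 2.54 times the WT level (interval 1.29 to 5.37). This difference rests on 12 and 35 reads. Casp1 was the higher of the pair in WT, at 3.31 times Casp4, and the lower in PU.1-/-, at 0.703 times Casp4, and their summed level was alike in the libraries, at 3.03 and 3.04 FPKM. Casp12, the next caspase gene along the chromosome (5345442 to 5373034), was at 4.96 and 5.08 FPKM.

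Gsdmd encodes the pore-former that both caspases cleave, and lies on chromosome 15 from 75862144 to 75867408. It was at 6.35 FPKM in WT against 2.73 FPKM in PU.1-/-, from 138 and 68 reads. The ratio was 2.33 with an interval of 1.73 to 3.16, so its lower end lay under the 2-fold limit, and Gsdmd remained at 42.9% of its WT level.

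The NOD receptors stood apart from the sensors Nlrp3, Aim2 and Nlrc4. Being level was not particular to them, since 10 of the 15 other sensors below were counted as neither lower nor higher, some near the floor. Nod1, which recognises diaminopimelic acid peptides, lies on chromosome 6 from 54923942 to 54972674 and was at 7.23 FPKM in WT against 7.50 FPKM in PU.1-/-. Nod2, the receptor of muramyl dipeptide, lies on chromosome 8 from 88647315 to 88688474 and was at 4.45 and 4.59 FPKM. The PU.1-/- levels were 1.04 times (interval 0.910 to 1.18) and 1.03 times (0.874 to 1.21) the WT levels, from 430 and 512 reads for Nod1 and 273 and 323 reads for Nod2. Differences inside these bounds, in either direction, could not be detected at this depth. Nod2 and Nlrp3 were near each other in WT, with a Nlrp3 over Nod2 ratio of 1.12, and were far apart in PU.1-/-, with a ratio of 0.0108.

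**Figure D2:**
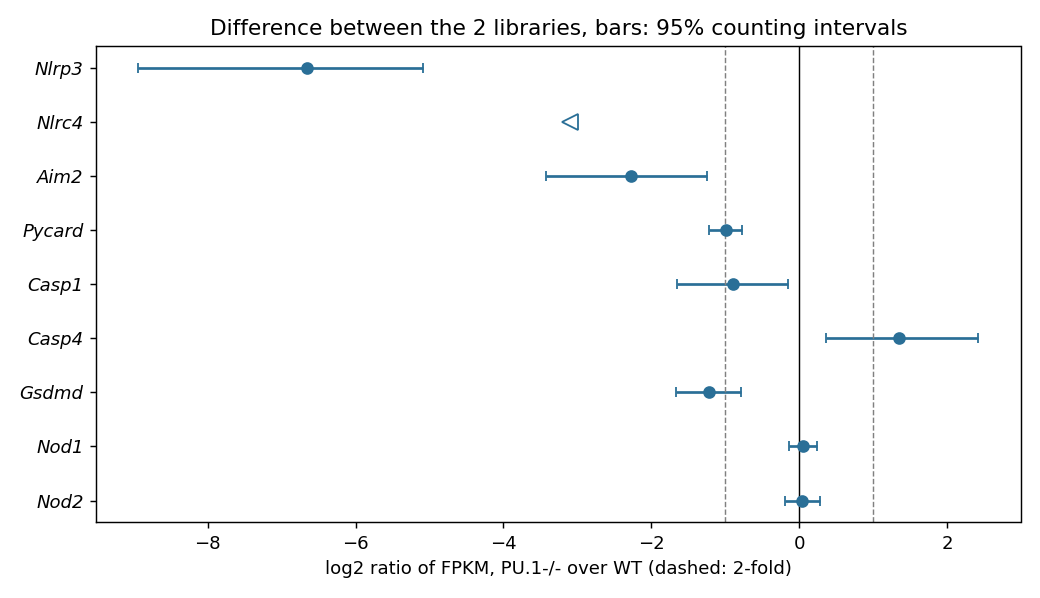
log2 ratio of FPKM (PU.1-/- over WT) of each gene, without a floor on low values, with 95% counting intervals as bars and dashed lines at 2-fold. The open arrowhead marks Nlrc4, listed at 0 in PU.1-/-, at the limit given by 3 reads. The intervals of Nlrp3 and Aim2 lie wholly beyond 2-fold, those of Nod1 and Nod2 span 0, and that of Casp4 lies above 0.

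In order of level, Pycard led in both libraries. In WT it was followed by Nod1, Gsdmd, Nlrp3, Nod2, Casp1, Aim2, Casp4 and Nlrc4, and counting intervals separated Pycard from Nod1 and Nod2 from Casp1, while the other neighbours overlapped. In PU.1-/- the order was Pycard, Nod1, Nod2, Gsdmd, Casp4, Casp1, Aim2, Nlrp3 and Nlrc4. There Nod1 and Nod2, Nod2 and Gsdmd, and Casp1 and Aim2 were separated by their intervals. Nlrp3 thus went from the fourth place to the eighth, and Pycard and Nod1, apart in WT, had overlapping intervals in PU.1-/-. The summed level of the 9 genes was 45.1 FPKM in WT against 26.9 FPKM in PU.1-/-.

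**Figure D3:**
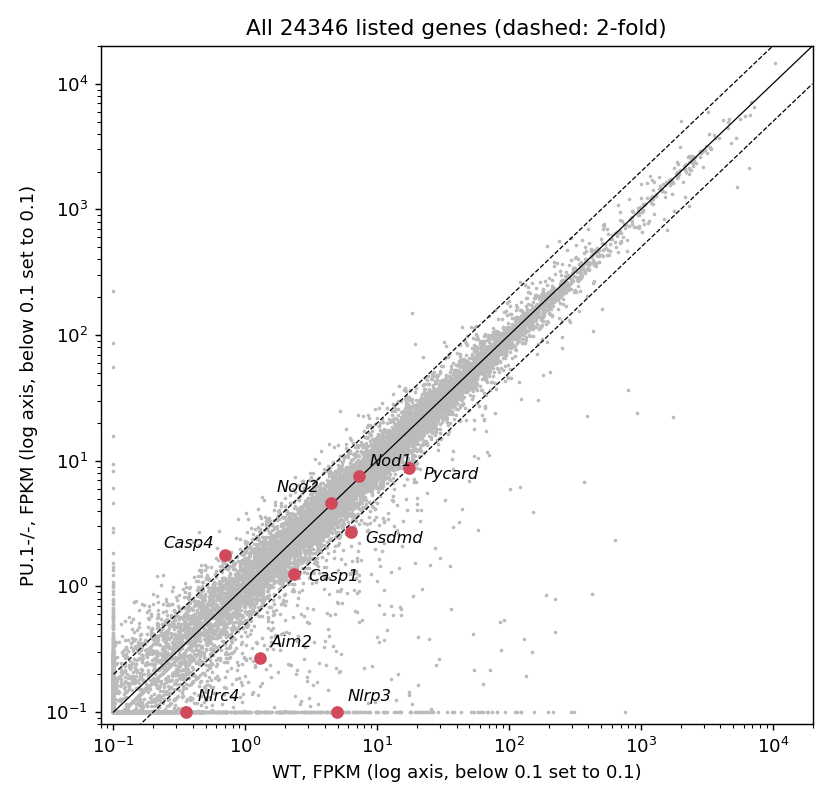
FPKM of all 24346 listed genes in the WT library (x, log axis) and the PU.1-/- library (y, log axis), values below 0.1 drawn at 0.1, with the 9 genes in red and dashed lines at 2-fold. Nlrp3 and Nlrc4 lie on the floor, Nod1 and Nod2 on the diagonal, Pycard on the lower dashed line and Casp4 above the upper one.

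Markers of myeloid cells were low in the same library as the lower genes. Of 10 macrophage markers 9 were at least 2-fold lower, their summed level was 723 FPKM in WT against 8.42 FPKM in PU.1-/-, and Adgre1, C1qa, C1qb, C1qc and Tyrobp were listed at 0. Of 9 neutrophil markers 8 were lower, with sums of 12588 and 3676 FPKM, or 677 and 31.1 FPKM without S100a8 and S100a9, and Retnlg, Ngp, Ltf, Csf3r and Mmp8 were listed at 0. Of 10 mast cell markers 9 were lower (752 and 15.5 FPKM), with Mcpt4, Ms4a2, Fcer1a and Tpsab1 at 0. Of 8 T cell markers 4 were lower and Cd3e, Cd3d, Cd3g, Cd4 and Cd2 were listed at 0 in PU.1-/- (Cd8a in both libraries), while the sum of this list, set almost wholly by Thy1, was 119 FPKM in WT against 167 FPKM in PU.1-/-. None of the 10 fibroblast markers (2815 and 3265 FPKM in sum) or 9 keratinocyte markers (11391 and 12927 FPKM) was counted as lower or higher, and 7 general genes had a median log2 ratio of −0.02. Of 8 skeletal muscle markers 2 were higher, and all had a log2 ratio between 0.52 and 1.04, while 1 of 8 endothelial markers (Vwf) was higher. The part of each cell type in the values of the 9 genes was not tested.
By log2 ratio, the nearest of 74 marker genes was Gata2 (mast cells) for Aim2, 0.36 away, and Mfap5 (fibroblasts) for Gsdmd, 0.31 away. Neither gene stood near the middle of its list. Gata2 had a log2 ratio of −1.91, and the mast cell list a median of −5.78. Mfap5, at −0.91, was the lowest of the fibroblast list, whose median was 0.17. For Nlrp3 and Nlrc4 no nearest gene is given, because their PU.1-/- values lie under 0.1 FPKM, where the ratio is set by the floor. With a pair of libraries such nearness is a single difference of ratios.

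The rest of the pathway was followed in a further 58 listed genes. Of these 12 were at least 2-fold lower and 2 higher, and their median log2 ratio was −0.16. Over all listed genes 4.34% were lower and 2.32% higher, and over genes that reached 0.1 FPKM in either library 6.49% and 3.47%. The same shares stand beside the counts of the separate lists below. Among 15 other sensors 4 were lower and 1 higher. Of the NAIP genes, whose products recognise bacterial ligands for NLRC4, Naip2 was at 1.82 FPKM in WT against 0.0548 FPKM in PU.1-/-. Its ratio was 33.2, with an interval of 12.7 to 124, from about 116 and 4 reads. Naip5 and Naip6 were at 0.326 and 0.229 FPKM in WT and listed at 0 in PU.1-/-, and Naip1 was listed at 0 in both. These are close copies whose reads may be shared, so their separate values are uncertain. Mefv, which encodes pyrin, was at 0.379 FPKM in WT and listed at 0 in PU.1-/-, at least 5.80-fold lower against 3 reads, with a counting interval from 4.12 upwards. Nlrc3, a NOD-like receptor described as a brake on signalling, was the higher one, at 0.161 and 0.420 FPKM from 12 and 36 reads. The nucleic acid sensors Ifi204 (41.5 and 31.5 FPKM) and Zbp1 (13.2 and 7.25 FPKM) stayed within 2-fold, and Ifi204 also has close relatives.

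Genes that license or relay these signals were mostly level. Of 12 such genes only Card9, the adaptor of C-type lectin receptors in myeloid cells, was lower, at 2.37 FPKM in WT against 0.134 FPKM in PU.1-/- (46 and 3 reads). Nek7, the kinase that binds NLRP3, was at 53.7 and 64.4 FPKM, and Txnip, which binds NLRP3 under oxidative stress, at 210.3 and 274.7 FPKM. The other abundant ones, Panx1, Brcc3, Gbp2, Irgm1, Ripk2 and Xiap, had log2 ratios between −0.45 and 0.35. Ripk2, the kinase downstream of both NOD receptors, was at 11.3 FPKM in WT against 9.87 FPKM in PU.1-/-, so the receptors and their kinase were each within 1.15-fold.

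None of 11 other caspases and death adaptors passed 2-fold in either direction, with log2 ratios between −0.49 and 0.33. Casp6 and Casp8, caspases of apoptosis, were at 27.5 and 16.0 FPKM in WT and at 20.7 and 14.2 FPKM in PU.1-/-. Casp14, the caspase of cornifying keratinocytes, was at 41.6 and 52.3 FPKM, and the necroptosis kinases Ripk1 and Ripk3 at 14.4 and 20.2 FPKM in WT and 14.1 and 18.1 FPKM in PU.1-/-.
Of the other gasdermins only Gsdma and Gsdmc were above Gsdmd, in both wounds. Gsdma was at 45.7 and 46.9 FPKM and Gsdmc at 52.0 and 70.3 FPKM, although both belong to clusters of close copies. Gsdmc2 was counted as higher on 1 and 6 reads, at 0.0386 and 0.202 FPKM, and its interval includes 1. Ninj1, which ruptures the membrane of dying cells after the pore has formed, was at 56.9 FPKM in WT against 28.9 FPKM in PU.1-/-, and the ratio was 1.97 with an interval of 1.74 to 2.22. Like Pycard it lay just inside the 2-fold limit.

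The cytokines that caspase-1 matures differed strongly from each other. Il1b was at 63.9 FPKM in WT against 0.169 FPKM in PU.1-/-, from 989 and 3 reads, while Il18 was at 17.4 and 20.6 FPKM, so that the Il1b over Il18 ratio was 3.67 in WT and 0.00821 in PU.1-/-. Il1a, whose product needs no caspase-1, was at 16.3 and 11.1 FPKM. The antagonists were lower as well, with Il1rn at 37.8 and 8.54 FPKM, the decoy receptor Il1r2 at 70.1 and 11.0 FPKM and Il18bp at 1.88 and 0.422 FPKM. In all, 4 of these 6 genes were lower.
Among 5 inhibitors 3 were lower. Trim30a, described as a brake on NF-κB and NLRP3 signalling, was at 3.46 and 1.09 FPKM. The pyrin-only genes Pydc3 (0.570 and 0.158 FPKM) and Pydc4 (0.268 and 0.0259 FPKM) were low, and belong to a cluster of similar genes. Serpinb1a, an inhibitor of neutrophil proteases and of caspase activation, stayed at 120.8 and 132.0 FPKM, and Tnfaip3 at 12.7 and 10.5 FPKM.

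**Figure D4:**
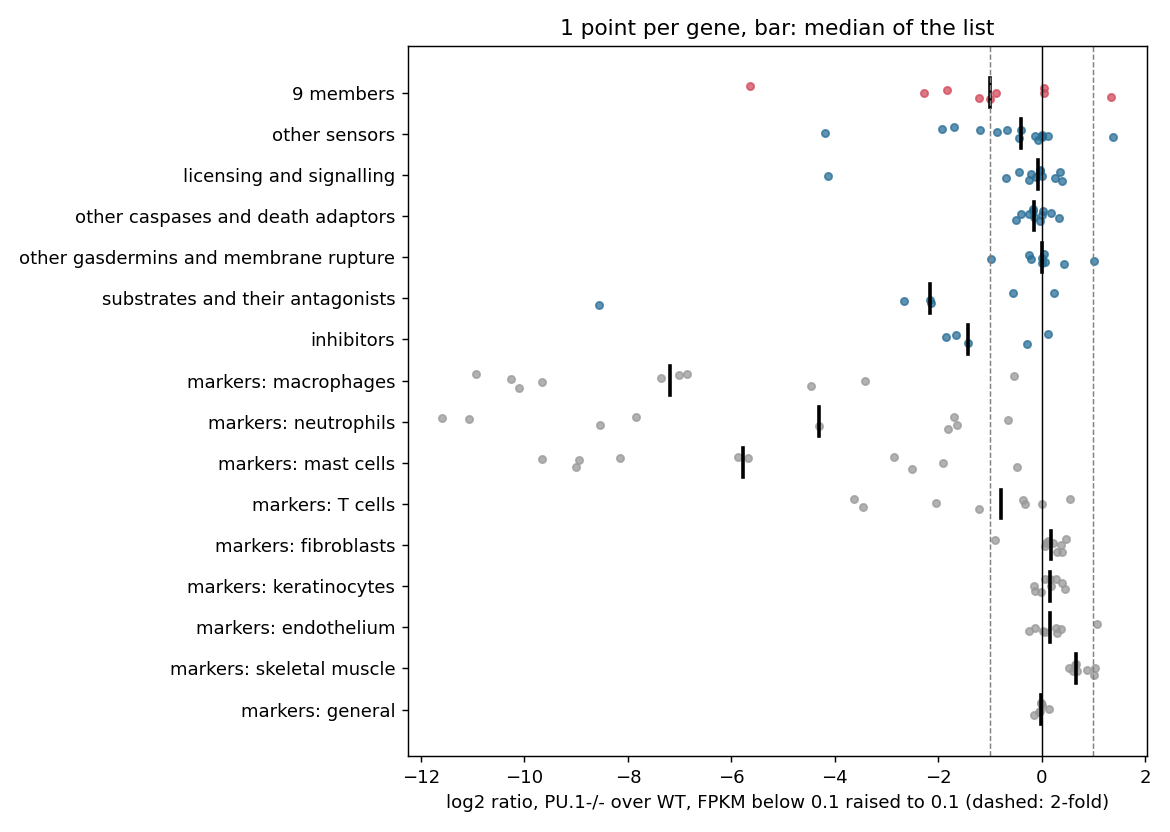
log2 ratio (PU.1-/- over WT, values below 0.1 FPKM raised to 0.1) of every gene of the 9 members (red), of the other pathway lists (blue) and of the cell type marker lists (grey), with black bars at list medians and dashed lines at 2-fold. The 9 members spread from −5.63 to 1.34, the macrophage, neutrophil and mast cell markers lie mostly far to the left, and caspases and death adaptors stay within the dashed lines.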

How the data were processed

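Bulk mRNA was sequenced from skin wounds of WT and PU.1-/- pups, 1 library per genotype. The authors prepared stranded mRNA libraries, sequenced single-end reads of 75 bases, mapped them to mm10 and deposited FPKM values per gene symbol, calculated in Cuffnorm 2.2.1. The submitters' processing notes name TopHat2 2.1.1, Bowtie2 2.2.8, SAMtools 0.1.18 and Cuffdiff 2.2.1. The annotation is not given in the sources used here.

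FPKM values below 0.1 were raised to 0.1, the libraries were divided, and 2-fold differences were counted. Read numbers were recovered from the steps of low genes: 459 low genes had one and the same ratio of 1.15 (WT over PU.1-/-), that of equal read numbers. GENCODE M21 transcript lengths less 200 nt set the value of 1 read, and for each gene the whole-read pair nearest to that estimate (relative tolerance of the ratio 4e-06, within 25% of the estimate) was taken. This gave a pair for 7 of the 9 genes. Nlrc4 was rounded from its length, and Pycard was given its smallest pair. The functions were tested on simulated data. The members and lists were chosen with earlier results of these data known. Other pathway genes were named if they passed 2-fold, reached 10 FPKM or encode IL-1α, IL-1β or IL-18. One gene that this rule names is not reported here. Casp12 and Naip1 were named after their values were seen. Ly6g, Flg and Erbin were not under those symbols, and Gsdme was found as Dfna5. P-values were not computed. The tools were numpy 2.4.6, pandas 2.3.3, matplotlib 3.10.9 and scipy 1.17.1 in Python 3.11.15.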

Additional observations from a re-analysis of the deposited data

How the results depend on the processing

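The directions held for every gene under 6 alternatives of low values and scaling, except that Nlrc4 had a log2 ratio of 0 with FPKM below 1 raised to 1. Of 54 such values 46 stayed inside the counting interval of the gene or within 0.1 of the main value. For Nlrc4 that interval has no lower end, so its value of −5.16 was counted as inside. The other values belong to Nlrp3, Nlrc4 and Aim2. Over all these settings their log2 ratios ran between −6.65 and −2.31 (Nlrp3), −5.16 and 0 (Nlrc4) and −2.27 and −0.38 (Aim2). With FPKM below 1 raised to 1, the lower members numbered 2 (Nlrp3 and Gsdmd), the higher 0, the other pathway genes 5 lower and 0 higher, all genes 463 lower, and the median of the members was −0.38. A pseudocount of 1 FPKM gave 1 lower member (Nlrp3) and 0 higher, 7 and 0 pathway genes, 461 genes in all and a median of −0.56. A pseudocount of 0.1 FPKM left 1 higher pathway gene. Values below 0.01 raised to 0.01 gave 4 higher pathway genes and 1778 lower genes in all. Keeping genes of at least 1 FPKM in 1 or both libraries dropped Nlrc4 from the lower members and gave 7 lower and 0 higher pathway genes and 589 lower genes in all. A 3-fold limit dropped Gsdmd from the lower members and left 0 higher members, 0 higher pathway genes and 681 lower genes, and a 1.5-fold limit gave 1867 lower genes and added Pycard and Casp1 to the lower members. These settings act on low values and limits by construction. Both ends of the intervals (for Nlrc4 the lower end) stayed on their side of 1 with whole transcript lengths and, in an alternative chosen after seeing the data, with reads from length alone, for the 8 genes other than Pycard. So did those of Pycard with its shortest transcript, also chosen after seeing the data. No paired analysis was possible because each genotype has 1 library. Depth limits the ratio of Nlrp3, with 3 reads in PU.1-/-, and those of Casp4, Aim2, Nlrc4 and Casp1, each with under 50 reads in each library.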

Other observations

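Most genes of the NLRP family were not detected in these wounds. Of 20 listed symbols starting with Nlrp, 13 were listed at 0 in both libraries and 5 reached 0.1 FPKM in 1 or both. These were Nlrp3, Nlrp10 (2.19 FPKM in WT against 1.99 FPKM in PU.1-/-), Nlrp1a (0.454 and 0.286 FPKM), Nlrp12 (0.105 FPKM and listed at 0) and the pseudogene Nlrp5-ps (0.127 and 0.0738 FPKM). Nlrp10, which is known from epidermis, was thus the most abundant of them in the PU.1-/- wound, where Nlrp3 had 3 reads. This family was chosen after its values were seen.

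GAGGAA occurred in 27.3% of the 20754 windows of listed genes, in 39.0% of the 916 windows of genes at least 2-fold lower in PU.1-/- and in 24.3% of the 478 windows of genes at least 2-fold higher. Windows of 1 gene overlap and base composition was not matched, so the shares are a description.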
